A study of Mus musculus with 3 samples.

Results

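The Hox-low T-negative Epi cyst cells were 289 epiblast-like (Epi) cells from 3D cysts of mouse embryonic stem cells (ESCs), chosen for the absence of detected T and for low Hox RNA. They made up 44.1% of the 655 Epi cells of the Epi cyst library and 10.7% of the 2692 cells of the series that passed the filter, out of 4177 deposited barcodes. A cell passed with at least 4000 detected genes and at most 10% of its UMIs (unique molecular identifiers, here counted RNA molecules) from mitochondrially encoded genes. It was called Epi where it had more UMIs of the Epi markers Pou5f1, Sox2, Nanog and Fgf4 than of the visceral endoderm (VE) markers Gata6, Sox17, Dab2 and Cubn. From these Epi cells, those with no UMI of the streak gene T and with a summed level of Hoxb1, Hoxb2 and Hoxa2 below 50 CPM (counts per 1000000 UMIs) were taken. The reference was the 868 Epi cells of bilayered embryo-like aggregates (BELAs) that passed the same filter and Epi rule, and the question was what differed between the 2 groups apart from the posterior genes.

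The series compared BELAs, Epi cysts and VE cysts, with 1 droplet-based single-cell RNA library of each, all made from E14tg2a ESCs that carry a doxycycline-inducible Gata4 transgene (iGATA). For BELAs, clone C6 was treated for 8 h with doxycycline at 0.5 µg/ml while in 2i + LIF, then held for 16 h in N2B27 medium. These cells were then seeded on gelatin at 30000 cells per cm2 and kept for 3 days in N2B27, where they formed an Epi core inside a VE layer, and round aggregates were picked by hand. For Epi cysts, iGATA cells, with no clone named, had no doxycycline and were embedded in 25 µl drops of growth factor-reduced matrigel for 1 day in 2i + LIF and 3 days in N2B27, without a VE layer. VE cysts came from clone C6 after 24 h of 0.5 µg/ml doxycycline, the last 16 h in N2B27 with FGF4 (10 ng/ml) plus heparin (1 µg/ml), and 3 days on gelatin with the same factors. Inducer, matrigel, the VE layer, days of culture, the cold matrigel recovery steps and the library itself therefore all differed between the 2 main groups, and their parts in any difference cannot be told apart.

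In the mouse embryo, epiblast cells leave naive pluripotency around implantation and pass through a formative state marked by Otx2, Pou3f1, Dnmt3b, Utf1 and Fgf5. Wnt, Nodal and FGF signals then set up the posterior side, where T marks the primitive streak and the 3′ Hox genes come on, while the anterior VE limits this programme by secreting Wnt and Nodal antagonists. Low oxygen is sensed separately in every cell, through prolyl hydroxylases that mark the transcription factor HIF for destruction, and HIF in turn switches on these hydroxylases and enzymes of anaerobic metabolism.

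With 1 library a group there was no replicate and no test. A level, in CPM, is the share of the summed UMIs of a group that a gene takes, and ratios are given with an exact 95% interval from the UMI counts, which covers counting error only and not the difference between cultures. A gene was called higher or lower where the ratio, with 5 CPM added to both levels, was at least 2-fold, among genes with a mean of at least 5 CPM in the 2 groups. The median cell had 59472 UMIs among the Hox-low T-negative cells and 78973 among the Epi cells of BELAs, with a median of 3.15% and 3.43% of UMIs from mitochondrially encoded genes. BELAs and Epi cysts shared 2 barcodes, none of which belonged to a cell that passed the filter. Levels were compared as shares of all UMIs, so the depth gap touches the shares of cells with a UMI more than the levels, and those shares are given for cells thinned to 40000 UMIs.

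The Epi label was checked on its markers. The Hox-low T-negative cells had a median of 44 Epi-marker UMIs and 0 VE-marker UMIs, and 247 of the 289 had no VE-marker UMI, the highest count being 3. Pou5f1, the central pluripotency factor, was at 627 CPM against 480.1 CPM in the Epi cells of BELAs, and Sox2, its partner, at 85 against 46.4 CPM. Nanog was at 22.8 and 29.9 CPM and Fgf4 at 11.5 and 21.9 CPM. All 4 genes were part of the cell rule, so these values describe the groups only. Of pluripotency genes that the rule did not use, Utf1 was at 412 CPM and L1td1 at 423 CPM. In BELAs, Utf1 was at 615 CPM in the Epi cells. It was at 246 CPM in the cells with more VE-marker than Epi-marker UMIs (VE cells), so it was not confined to Epi cells.

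The Hox cut split a continuous range. Of the 445 T-negative Epi cyst cells, 156 lay above it and are called Hox-high here, while 210 further Epi cells had a T UMI and are called T-positive. Among the members, 221 had no UMI of the 3 Hox genes and 68 had at least 1. The 2 cells closest below the cut had 47.7 and 47.7 CPM, the 2 closest above it 50.5 and 50.6 CPM, and 21 T-negative cells lay within 10 CPM of it. As a description of what the rule selected, Hoxb1 was at 2.3 CPM in the Hox-low T-negative, 63.9 CPM in the Hox-high and 30.3 CPM in the T-positive cells. BELAs held almost no such cells to remove, since 844 of their 868 Epi cells passed the same T and Hox rule.

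Against the Epi cells of BELAs, 9194 genes were compared. Of these, 65 (0.707%) were at least 2-fold higher and 82 (0.892%) at least 2-fold lower in the Hox-low T-negative cells, and the median log2 ratio of all genes was 0.04. The other 366 Epi cyst cells differed from the same BELA cells by more genes, 155 higher (1.68%) and 161 lower (1.74%) of 9248. These 2 comparisons share their BELA cells, and the 155 include T, Hoxb1 and Hoxb2, which the cell rule used. Within the Epi cyst library, only 4 genes (0.0436%) were at least 2-fold higher and 40 (0.436%) at least 2-fold lower in the Hox-low T-negative cells than in the other Epi cyst cells, of 9184 compared. The 40 lower genes also include T, Hoxb1 and Hoxb2, whose low level in these cells was fixed in advance by the rule. The 4 higher genes were Otx2, Foxd3, Utf1 and Slc35d3, the last at 15.1 against 4.18 CPM and named after its values were seen.

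The formative genes were near their BELA level. All 13 genes of the formative and primed list were compared, none was past 2-fold in either direction, and their median log2 ratio was -0.02, beside 0.04 for all genes. Otx2, the homeobox factor of the formative and anterior epiblast, was at 84.4 CPM (80.2 to 88.8) in the Hox-low T-negative cells and 106 CPM (104 to 108) in the Epi cells of BELAs. It was at 10.2 CPM in the Hox-high cells, 31.2 CPM in the T-positive cells and 32.1 CPM in the 44 Epi cells found in VE cysts. The level was thus 1.26-fold (1.19 to 1.33) below that of BELAs but 3.73-fold (3.38 to 4.13) above that of the other Epi cyst cells. In thinned cells, an Otx2 UMI was found in 79.3% of the Hox-low T-negative, 23.7% of the Hox-high and 49% of the T-positive cells and in 91.5% of the Epi cells of BELAs.

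Other formative genes followed with smaller steps. Dnmt3b, a de novo DNA methyltransferase, was at 785 CPM in the Hox-low T-negative, 365 in the Hox-high and 513 in the T-positive cells, and at 958 CPM in BELAs. Pou3f1, a POU factor of the formative state, was at 251 CPM and 254 CPM in the Hox-low T-negative cells and BELAs, a ratio whose interval included 1, against 124 and 141 CPM in the Hox-high and T-positive cells. Foxd3, a forkhead factor of pluripotent cells, showed the same order, with 21.7 and 19.9 CPM against 5.75 and 6.18 CPM. Utf1, a chromatin factor of pluripotent cells, stood in between, at 412 CPM, with 615 CPM in BELAs and 136 and 235 CPM in the Hox-high and T-positive cells. Fgf5, a ligand of the postimplantation epiblast, was the formative gene farthest from BELAs, at 44.5 against 90.1 CPM, 2.03-fold (1.88 to 2.18) lower, which stayed inside the 2-fold limit once 5 CPM were added. The apical and junction genes Cldn6, Cldn7, Crb3 and Rab25 were also among the 10 genes ranked highest over the other Epi cyst cells. Cldn7, a tight junction protein, was at 124 CPM in the Hox-low T-negative cells, 176 CPM in BELAs and 60.7 CPM in the other Epi cyst cells. In the 16 genes of the junction and lumen list, none was past 2-fold against BELAs.

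**Figure D1:**
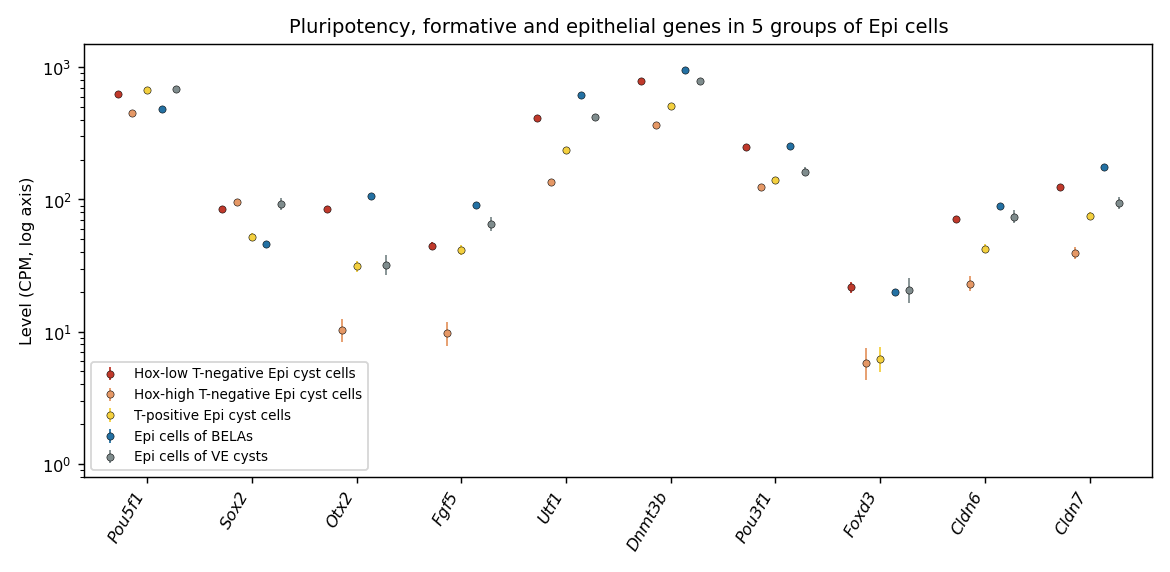
Levels (CPM, log axis) of 10 pluripotency, formative and epithelial genes in the Epi cells of Epi cysts (Hox-low T-negative, Hox-high, T-positive), BELAs and VE cysts; points are levels over the summed UMIs of the group and bars exact 95% Poisson intervals. Otx2 lies at 84.4 CPM in the Hox-low T-negative cells and 106 CPM in BELAs, and at 10.2 CPM in the Hox-high cells.

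Of the 11 core pluripotency genes, 1 was past 2-fold, which was Tdgf1 and was lower. The list holds Pou5f1, Sox2 and Nanog, which the cell rule used, and the 8 others had a median log2 ratio of 0.33 over BELAs, beside 0.04 for all genes. Lin28a, an RNA-binding protein that blocks let-7 maturation, was at 265 CPM against 135 CPM, 1.96-fold (1.89 to 2.03) higher. Sall4, a zinc-finger factor, was 1.55-fold (1.48 to 1.62) higher and L1td1, an RNA-binding protein of ESCs, 1.47-fold (1.44 to 1.51) higher. Of the naive genes, Dppa5a, a KH-domain protein, was at 134 CPM in the Hox-low T-negative, 91.4 in the Hox-high and 120.5 in the T-positive cells, against 647 CPM in BELAs and 696 CPM in the Epi cells of VE cysts. All 3 groups of Epi cyst cells thus lay below the Epi cells of BELAs and of VE cysts, 4.81-fold (4.62 to 5.02) below BELAs for the Hox-low T-negative cells. Dppa5a was not confined to Epi cells, at 1199 CPM in the VE cells of BELAs. Klf2, a naive pluripotency factor that went the other way, was at 27.8 against 10.9 CPM, 2.54-fold (2.26 to 2.84) higher, and Klf5 was 3.78-fold (2.91 to 5.01) lower. The list had 5 genes that could be compared, with 1 higher and 2 lower, against 0.707% and 0.892% of all genes.

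Several of the genes ranked highest over BELAs are known from the posterior and hindbrain side of the embryo, beside others such as Fst, Cntfr and Btbd17 described further on, and none of them was used by the rule. Meis2, a homeobox partner of Hox proteins, was at 48 CPM (44.8 to 51.3) in the Hox-low T-negative cells and 0.43 CPM in the Epi cells of BELAs, and reached 283 and 129 CPM in the Hox-high and T-positive cells. Hotairm1, a noncoding RNA of the Hoxa cluster, was at 27, 0.444, 169 and 65.8 CPM in the same order of groups. Both genes were lower than in the other Epi cyst cells and higher than in BELAs, where they were at or near 0.

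Nkx1-2, a factor of the caudal epiblast, was 61.8-fold (42.2 to 94.2) higher than in BELAs, at 24 CPM. Gbx2, a factor of the hindbrain side of the midbrain-hindbrain border, was at 25.5 against 0.998 CPM, Wnt8a, a Wnt ligand of the posterior epiblast, at 17.3 against 0.25 CPM and Epha4, an Eph receptor of hindbrain segments, at 21.5 against 2.62 CPM. Sp8, a zinc-finger factor that responds to Wnt, was at 10.8 against 0.374 CPM, the only gene past 2-fold of 6 Wnt/beta-catenin targets. Its companions on that list, Lef1 (83.1 against 46.2 CPM) and Ccnd1 (182 against 175 CPM), were not. Crabp1, a retinoic acid binding protein that stood at 512 CPM in the Hox-high cells, was at 16.6 CPM in the Hox-low T-negative cells and 12 CPM in BELAs, and so separated the 2 kinds of Epi cyst cell more than Meis2 did. Fgf8, a ligand of the streak, was likewise at 6.62 CPM against 94.5 CPM in the T-positive cells and 3.36 CPM in BELAs. Gbx2 is on the neural list too, where 3 of 6 genes compared were at least 2-fold higher, against 0.707% of all genes. The median log2 ratio of that list over BELAs was 0.84, beside 0.74 in the other Epi cyst cells. Without the filter on low genes it was 0.01.

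Such transcripts were detected in most Hox-low T-negative cells. In cells thinned to 40000 UMIs, 39.1% had UMIs of both Otx2 and Meis2, 40.2% of Otx2 only, 13.7% of Meis2 only and 7.03% of neither. Among Epi cells of BELAs, 89.3% had Otx2 only and 2.25% both, and among Hox-high cells 74.1% had Meis2 only and 23.7% both. In cells as sequenced, a Meis2 UMI was found in 56.7% of the Hox-low T-negative cells against 3.34% in the more deeply sequenced Epi cells of BELAs. Only 27 of the 289 cells had no UMI of the 3 Hox genes nor of 8 further posterior genes (Hotairm1, Meis2, Gbx2, Nkx1-2, Wnt8a, Epha4, Foxb1, Olig3), which were picked after their values were seen. For this count 1 UMI of any of these genes was enough, and the same count is not given for BELAs. The other Epi cyst cells of the library had 192 CPM of Meis2, and carry-over of their RNA into these cells was not tested. Against BELAs these 27 cells had 56 genes (0.612%) higher and 127 (1.39%) lower, with a median depth of 57390 UMIs.

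The cells were ranked by the summed level of these 8 genes and divided into 4 bins, of 73 cells for the lowest and 72 for each of the others, with median depths of 57917 to 62047.5 UMIs. Of the 13 formative genes, 11 were lower in the highest than in the lowest bin, beside 46.4% of all 9194 genes, whatever the size of the step. The 8 genes were picked after their values were seen. Meis2, Hotairm1, Epha4 and Olig3 were already among the genes ranked lowest against the other Epi cyst cells, and Otx2, Foxd3 and Utf1 among the highest. The order over the bins is therefore a description and no separate support. Otx2 was at 115, 104, 69.3 and 49 CPM from the lowest to the highest bin, so that the lower 2 bins were close to the BELA level of 106 CPM. Dnmt3b was at 945, 877, 721 and 594 CPM, and Utf1 at 498 CPM in the lowest and 314 CPM in the highest bin. Sox2 and Nanog, which the cell rule used, are given as a description only, with Sox2 at 98.4 and 64 CPM and Nanog at 9.86 and 36 CPM in the lowest and highest bin. The bins are ranges of a score and not cell types, and the points of 1 library share their culture.

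**Figure D2:**
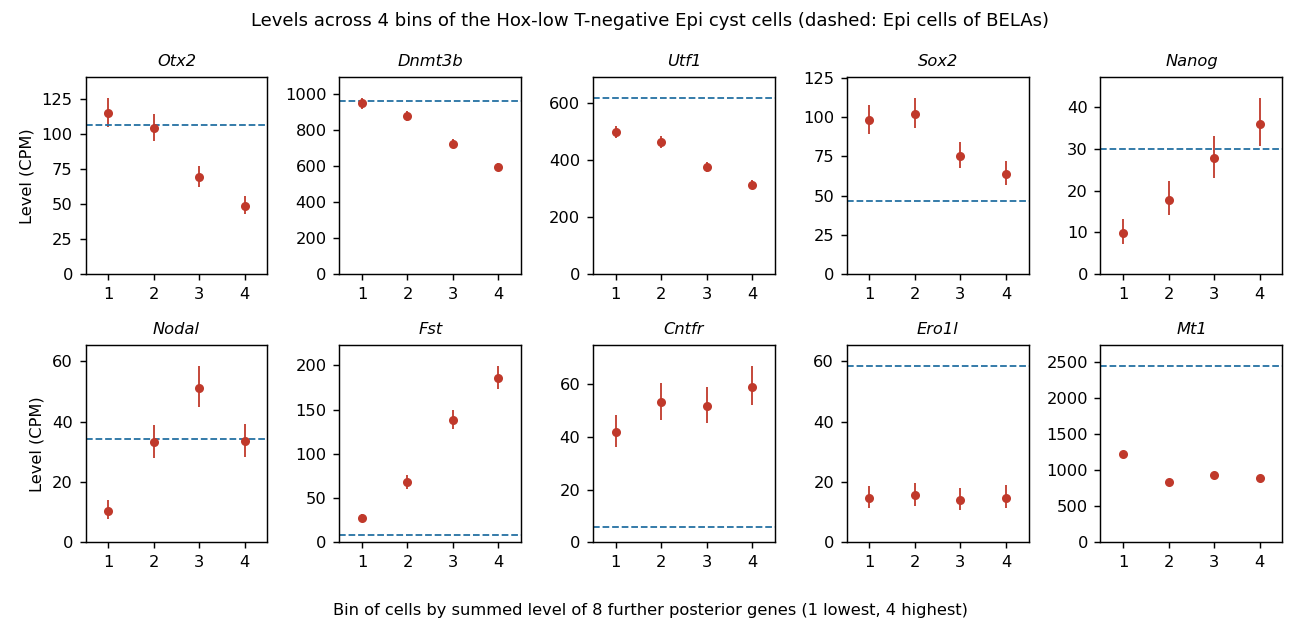
Levels (CPM) of 10 genes in 4 bins of the Hox-low T-negative Epi cyst cells, ranked by the summed level of 8 posterior genes outside the cell rule; bars are exact 95% Poisson intervals and the dashed line is the level in the Epi cells of BELAs. Sox2 and Nanog were part of the cell rule. Otx2 goes from 115 to 49 CPM and Fst from 27.3 to 186 CPM, while Ero1l stays between 14.1 and 15.6 CPM in all bins.

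A second set of genes was higher in every kind of Epi cyst cell to a similar extent. Cntfr, the ligand-binding receptor subunit for ciliary neurotrophic factor, was at 51.4 CPM in the Hox-low T-negative, 71.6 in the Hox-high and 60.7 in the T-positive cells, against 5.84 CPM in BELAs, 8.8-fold (7.83 to 9.9) for the Hox-low T-negative cells. It was also found in most cells, with a UMI in 84.4% of thinned Hox-low T-negative cells and 19.6% of thinned Epi cells of BELAs. Arhgef26, an exchange factor for small GTPases, was at 24.4 CPM against 3.69 CPM, 6.61-fold (5.67 to 7.73) higher. Spred1, an inhibitor of Ras signalling to ERK, was 2.74-fold (2.52 to 2.99) higher. Of 15 ERK targets and feedback genes it was the only higher one, and 2 were lower, Egr1 among them. The shares of all genes were 0.707% higher and 0.892% lower. In the 27 cells with none of the 11 transcripts above, Cntfr was at 41 CPM and Arhgef26 at 20.8 CPM, with Spred1 at 37.1 CPM, so these 3 genes stayed above BELAs there.

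The Epi cells of VE cysts, which had doxycycline for longer than BELAs and no matrigel, lay between for some of these genes and not for others. They had 30.1 CPM of Cntfr and 34.7 CPM of Spred1. Dennd5b, a Rab exchange factor, was at 225 CPM in the Hox-low T-negative cells and 259 CPM in the Epi cells of VE cysts, both above the 75.5 CPM of BELAs. AY036118 was likewise at 123, 159.8 and 33.8 CPM. Grb10, an imprinted adaptor of insulin receptor signalling, was 3.07-fold (2.81 to 3.34) higher than in BELAs. The near-identical genes Rtl8a and Rtl8b, between which reads can be divided, were at 31.7 and 38.5 CPM against 6.67 and 8.1 CPM. Rtl8b was at 14.8 CPM in the lowest and 59.7 CPM in the highest bin, whereas Cntfr was at 41.9 and 59 CPM.

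Fst, or follistatin, a secreted antagonist of activin, belonged to neither set. It was at 105 CPM in the Hox-low T-negative cells, 123 in the Hox-high, 226 in the T-positive, 8.86 in the Epi cells of BELAs and 35.9 CPM in the Epi cells of VE cysts, 11.8-fold (10.8 to 12.9) higher than in BELAs. Between bins it went from 27.3 to 186 CPM. Btbd17 was highest in the Hox-low T-negative cells, at 26.8 CPM, with 20.3 CPM in the Hox-high cells, 6.03 in the T-positive cells and 3.33 CPM in BELAs.

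**Figure D3:**
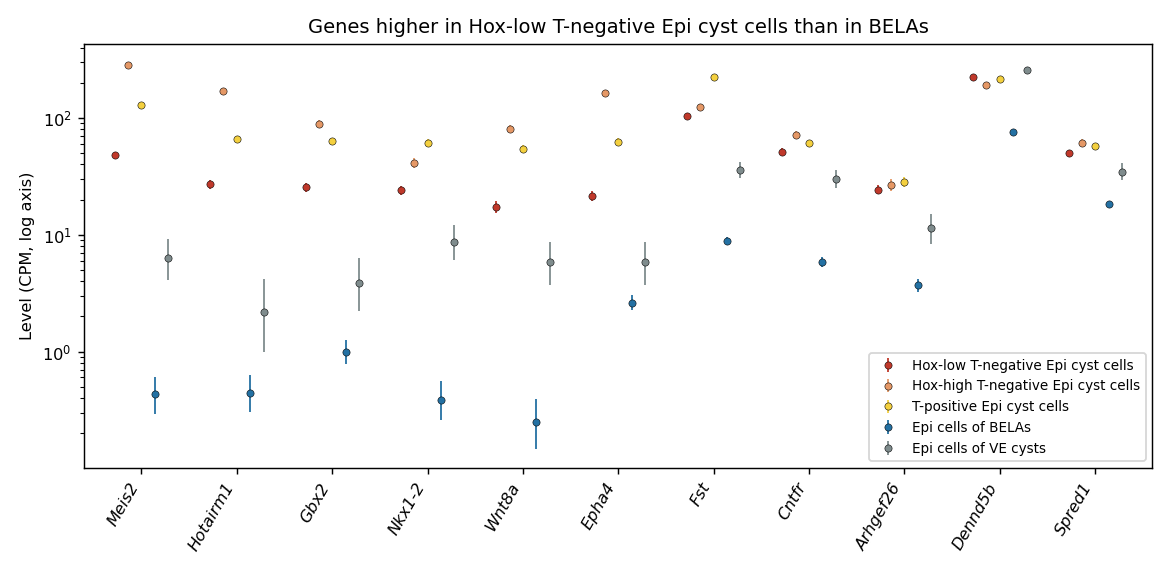
Levels (CPM, log axis) of 11 genes at least 2-fold higher in the Hox-low T-negative Epi cyst cells than in the Epi cells of BELAs, in 5 groups of Epi cells; bars are exact 95% Poisson intervals. From Meis2 to Epha4 the Hox-low T-negative cells lie below the Hox-high cells, whereas Cntfr (51.4 and 71.6 CPM) and Arhgef26 (24.4 and 26.7 CPM) differ little between them.

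By count, the hypoxia response list had the most members below BELAs. Of 16 genes compared, 5 were at least 2-fold lower, against 0.892% of all genes, and the median log2 ratio was -0.64. Egln3 and Egln1, the HIF prolyl hydroxylases that HIF itself induces, were at 4.38 against 26.2 CPM and 11.1 against 31 CPM, 5.98-fold (4.77 to 7.6) and 2.8-fold (2.42 to 3.26) lower. Ero1l, the oxidase that forms disulfides in the endoplasmic reticulum, was at 14.8 against 58.3 CPM, 3.93-fold (3.47 to 4.47) lower. P4ha1, a collagen prolyl hydroxylase, was 2.93-fold (2.5 to 3.44) lower, and Ndrg1 was at 0.449 against 17.3 CPM. The remaining 11 were inside 2-fold, among them Bnip3 (84.9 against 148 CPM), Higd1a (282 against 343 CPM) and Car2, which was higher (167 against 98.7 CPM).

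Among the 3 groups of Epi cyst cells, 4 of the 5 genes were at similar levels. Ero1l was at 14 and 16.1 CPM in the Hox-high and T-positive cells and Egln3 at 4.47 and 4.56 CPM, close to the 14.8 and 4.38 CPM of the Hox-low T-negative cells. Egln1 was at 11.1, 10.9 and 10.4 CPM in the Hox-low T-negative, Hox-high and T-positive cells, P4ha1 at 9.54, 10.9 and 9.92 CPM, and Ndrg1, with 8 UMIs in the 289 cells, at 0.449, 1.17 and 0.956 CPM, too few to rank. In the Epi cells of VE cysts, Egln3 was at 25.7 CPM, as in BELAs, and Ero1l at 30.6 CPM, between the groups. Within BELAs the genes were uneven, since the 87 of 868 Epi cells with the most Ero1l UMIs held 56.8% of them, against 34.1% in the top 29 of the 289 Hox-low T-negative cells. The median cell had 24.1 CPM of Ero1l in BELAs and 12.8 CPM in the Hox-low T-negative cells, and the cell at the 90th percentile 160.1 and 41.4 CPM. Thinned cells with an Egln3 UMI made up 47.3% and 17.2%. Ndufa4l2, a respiratory chain-associated gene induced by HIF but not on the list, was at 7.68 CPM in the Hox-low T-negative cells, 48.6 CPM in BELAs and 54.6 CPM in the Epi cells of VE cysts.

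The 4 of these 5 genes that RefSeq's promoter table holds each carry the core of the HIF response element, ACGTG or its reverse complement CACGT, in the 250 bases before the start of transcription. The windows are shown because the genes moved together, with the motif in capitals and 5′ to 3′ on the strand of the gene, from build GRCm38.p6. Ero1l is Ero1a in that table.
Egln1 (chr8:124949278-124949362, minus strand, motif 68 bases before the start): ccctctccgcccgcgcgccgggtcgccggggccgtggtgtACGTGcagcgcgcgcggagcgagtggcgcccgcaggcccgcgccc
Egln3 (chr12:54204059-54204124, minus strand, motif 229 bases before the start): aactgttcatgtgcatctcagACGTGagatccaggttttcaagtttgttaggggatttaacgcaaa
P4ha1 (chr10:59323240-59323295, plus strand, motif 16 bases before the start): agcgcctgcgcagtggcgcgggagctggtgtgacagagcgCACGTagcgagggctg
Ero1l (chr14:45318591-45318675, minus strand, motif 63 bases before the start): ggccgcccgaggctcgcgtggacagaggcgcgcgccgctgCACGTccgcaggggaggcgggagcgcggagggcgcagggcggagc
The motif, which also lies inside the E-box CACGTG, was present in the promoter window (250 bases before to 50 after the start) of 11 of the 13 hypoxia list genes found in the table, out of 16 compared, and of 21.8% of all 27018 genes of the table. A match is a description of the letters only.

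Glycolysis, which HIF also feeds, was not lower as a list. Of 16 genes, only Pfkp, a phosphofructokinase, was past 2-fold (9.93 against 26.3 CPM), and the median log2 ratio was -0.14. Aldoa was at 1114 against 1812 CPM, Ldha at 1619.8 against 1571 CPM and Gapdh at 4737 against 4202 CPM. The 73 nuclear genes of the respiratory chain, 13 mitochondrially encoded genes and 82 cytosolic ribosomal protein genes held none past 2-fold, with medians of -0.01, -0.10 and -0.03.

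Among the other lower genes were 2 metallothioneins of the 10 genes of the oxidative stress and metallothionein list, against 0.892% of all genes. The list median was 0.12, so the list as a whole was not lower. Mt1 and Mt2, which bind zinc and copper, were at 976 and 454 CPM against 2442 and 1150.1 CPM, 2.5-fold (2.46 to 2.54) and 2.53-fold (2.48 to 2.59) lower, and in the Epi cells of VE cysts they were at 1115 and 548 CPM. Anxa2, a membrane-binding annexin, was at 3.59 against 46.6 CPM, 13-fold (10.1 to 16.9) lower. Krt18, a keratin of simple epithelia, was at 37.7 against 147 CPM, and Krt19 at 2.64 against 15.8 CPM. Anxa2 UMIs were held unevenly in BELAs, with 75.5% in the top 87 of 868 Epi cells. Jun and Egr1, immediate early transcription factors, were at 15.3 and 6.9 CPM against 53.6 and 38.2 CPM. Of 12 early response and heat shock genes these 2 were past 2-fold, against 0.892% of all genes lower, while Hspa8 was at 1937 and 1899.8 CPM. The labels give the cysts a cold matrigel recovery and further washes that BELAs did not have, and their part in these 2 genes was not tested. Hes1, a target of Notch and other signals, was at 23.4 against 92.6 CPM, and at 51.5 CPM in the other Epi cyst cells.

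Several of these genes are also VE genes, and BELAs hold VE cells. Of the 82 lower genes, 33 were over 2-fold higher in the VE cells of BELAs than in their Epi cells, against 10 of the 65 higher genes and 1174 of all 9194 genes compared. The 13 VE list genes that the cell rule did not use were found in the Epi cells of BELAs at a median of 1.27% of their level in VE cells, with a range of 0.526% to 14%. A share of 1.27% would amount to 35.1 CPM for Spink1, a secreted protease inhibitor, whose level in the Epi cells of BELAs was 22.1 CPM. For Apoe, the apolipoprotein, it would be 66.1 of 733 CPM, for Anxa2 1.29 of 46.6 CPM, for Ero1l 1.34 of 58.3 CPM and for Mt1 60.5 of 2442 CPM. Apoe is itself 1 of the 13 genes and the one at 14%, so its amount is not separate from the median. At a share nearer the top of the range all these amounts would be larger. Against the 227 Epi cells of BELAs with no VE-marker UMI, 73 genes (0.795%) were higher and 79 (0.860%) lower, all 30 ranked genes stayed past 2-fold, and Anxa2 (53.1 CPM), Ero1l (64.2 CPM) and Mt1 (2526 CPM) were no lower than in all Epi cells of BELAs. Spink1 was at 15.5 CPM there. The 227 cells had a median of 69408 UMIs, against 78973 in all Epi cells of BELAs, so a VE-marker count of 0 also depends on depth. The VE list, which also holds the VE markers of the cell rule, had 4 of its 17 genes compared. Of these, 3 were at least 2-fold lower, against 0.892% of all genes. The median log2 ratio of the list was -1.27 over all Epi cells of BELAs, or -0.41 without the filter on low genes. Over these 227 cells it was -0.60. They were picked for having no UMI of markers that the list holds, so this value is not separate from that choice. The part of VE RNA in these differences was not tested. Markers of trophoblast, of blood and endothelium and of 2-cell-like cells had no gene at the level needed for comparison.

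**Figure D4:**
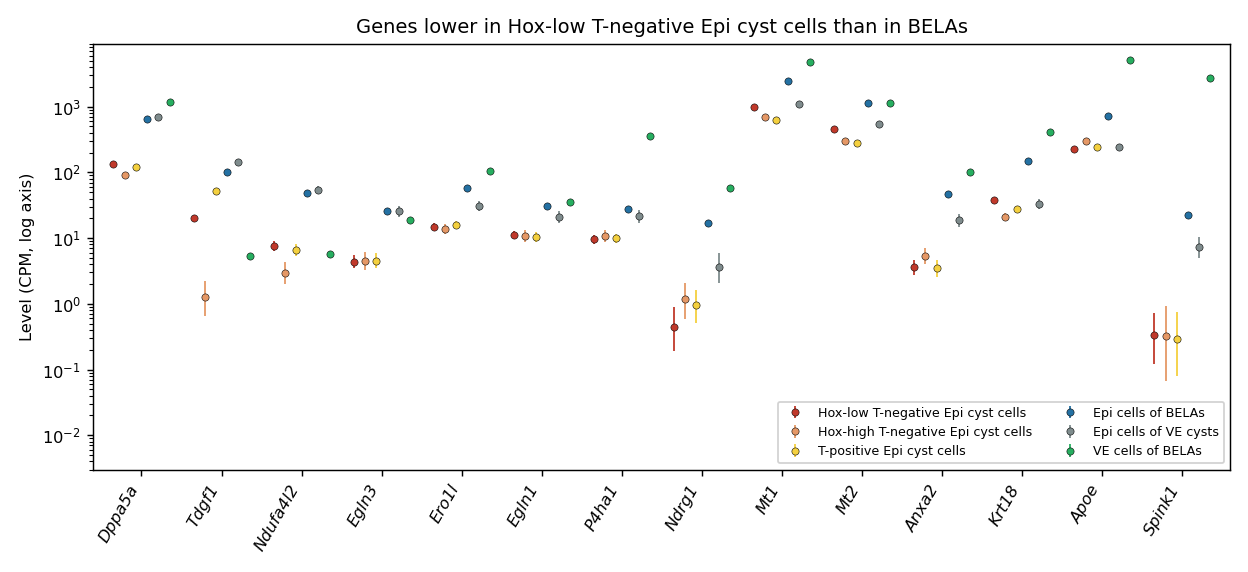
Levels (CPM, log axis) of 14 genes at least 2-fold lower in the Hox-low T-negative Epi cyst cells than in the Epi cells of BELAs, in 5 groups of Epi cells and in the VE cells of BELAs; bars are exact 95% Poisson intervals. The 3 groups of Epi cyst cells lie together for Egln3, Ero1l, Egln1 and P4ha1 and apart for Tdgf1, and Spink1 reaches 2769.8 CPM in VE cells.

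Of 12 Nodal pathway genes, 1 was past 2-fold, which was Tdgf1 and was lower, against 0.892% of all genes lower. The median log2 ratio was -0.09. Nodal, the ligand, was at 32.2 CPM against 34.4 CPM and the receptor gene Acvr2b at 63.3 against 54.4 CPM. Tdgf1, or Cripto, the coreceptor that Nodal needs, was at 19.9 CPM in the Hox-low T-negative, 1.28 in the Hox-high and 52 in the T-positive cells, against 102 CPM in BELAs and 144 CPM in the Epi cells of VE cysts. Lefty1, the feedback inhibitor induced by Nodal, was at 28.8 against 56.9 CPM.

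In thinned cells, a Tdgf1 UMI was found in 19.5% of the Hox-low T-negative cells and 71.5% of the Epi cells of BELAs. VE cells of BELAs had one in 4.47%, their median depth before thinning being 90251 UMIs, and its source there was not tested. The 29 Hox-low T-negative cells with the most Tdgf1 held 85.9% of its UMIs and the top 87 Epi cells of BELAs 46%, and for Nodal 53.5% and 37.6%. The 2 groups had 355 and 7336 Tdgf1 UMIs and were sequenced to unequal depth, and the part of this in these shares was not tested. The 26 cells with at least 5 Tdgf1 UMIs had 115 CPM of Nodal, 80.2 CPM of Lefty1, 33 CPM of Eomes and 30.2 CPM of Fgf8. The 224 cells without a Tdgf1 UMI had 19.7, 15.3, 4.74 and 2.7 CPM. Otx2 was at 72 CPM in the first and 88.8 CPM in the second. Summed over these 26 cells, none with a T UMI, Nodal, Lefty1, Eomes and Fgf8 were thus higher than in the 224. Whether single cells held these transcripts together was not tested. The median depth was 70340.5 UMIs in the 26 and 58834 UMIs in the 224 cells, and the 26 were drawn after their values were seen.

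Of 10 BMP pathway genes, 3 were past 2-fold, against 0.707% of all genes higher and 0.892% lower. Id2, an inhibitor of bHLH factors, was higher (28 against 10.6 CPM), and the ligand gene Bmp4 (1.35 against 8.99 CPM) and the inhibitory Smad7 (11.9 against 39.6 CPM) were lower. Of the 5 FGF ligands and receptors none passed, with Fgfr1 at 65.8 against 42.4 CPM. Of 6 YAP targets, Ccn1, a matrix protein, was lower (2.8 against 18.1 CPM). The 11 basement membrane genes had none past 2-fold and a median log2 ratio of -0.34, and the 6 integrin and dystroglycan genes none and 0.02. Zeb2, a repressor of E-cadherin, was higher (20.0 against 2.37 CPM), whereas Cdh1, E-cadherin itself, was at 127 and 139.7 CPM and Epcam at 379 and 463 CPM. Of 22 ATF4 and amino acid response genes only Atf5 was past 2-fold (30.8 against 12.8 CPM), with Psat1, a serine synthesis enzyme, at 331 against 165 CPM. The cholesterol synthesis (20 genes), p53 target (17), S phase (15), G2/M phase (14) and folding (15) lists held none past 2-fold, with medians between -0.05 and 0.22.

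**Figure D5:**
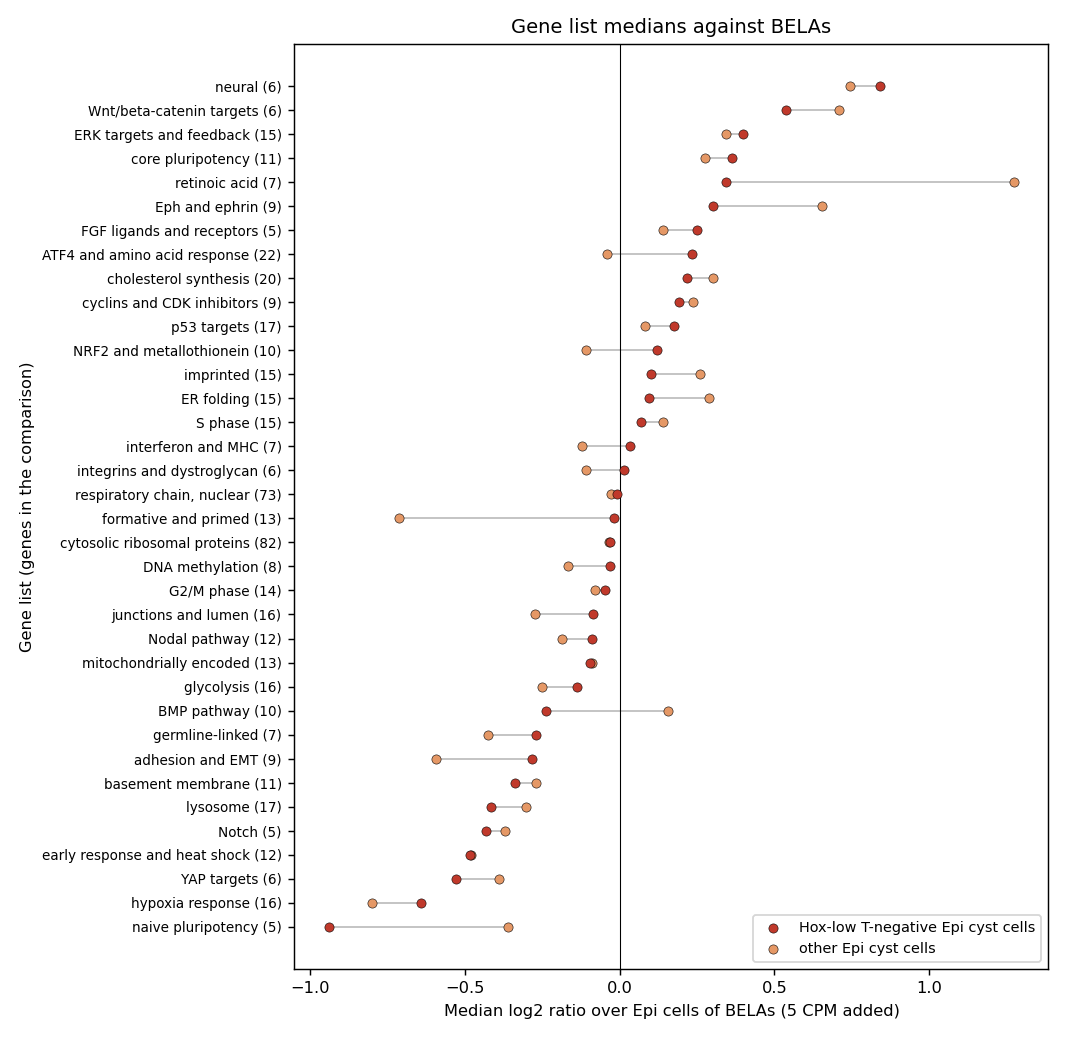
Median log2 ratio over the Epi cells of BELAs (5 CPM added) for each gene list with at least 5 genes compared, in the Hox-low T-negative and in the other Epi cyst cells; the number of genes is in brackets. Both sets of medians share their BELA cells. The formative list is at -0.02 and -0.71 and the hypoxia list at -0.64 and -0.80.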

How the data were processed

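Each library held 1 kind of 3D culture of mouse ESCs, taken up by 10x Genomics 3′ chemistry (version 3.1 per the labels). The deposited files held whole-number UMI counts per gene and cell barcode, which the authors made with Cell Ranger 4.0.0 on mm10, 32285 genes, unfiltered for genes per cell or mitochondrial share. Groups came from the labels, 1 library each, so no replicate spread could be had. Here the counts were read with scipy 1.17.1, pandas 2.3.3 and numpy 2.4.6 in Python 3.11.15, cells were filtered and classed by the rule in the text, and counts were summed per group. Intervals of levels are exact Poisson, of ratios exact binomial conditional on the summed UMIs and of shares Clopper-Pearson, all at 95%. The ratio calculation was tested on simulated data. Doublets were called with Scrublet in scanpy 1.11.5 and left in: 4 of 289 Hox-low T-negative cells and 1 of 868 Epi cells of BELAs were called. The members and gene lists were chosen with earlier results of these data known. Genes named are those of the cell rule, the 15 highest and 15 lowest log2 ratios over BELAs and the 10 and 10 over the other Epi cyst cells among genes reaching 20 CPM in either group, and list genes past 2-fold or of highest level, with predicted genes counted but not named, and a few others not reported here. Promoter letters are from RefSeq's table for GRCm38.p6, the assembly that mm10 also names. Alternatives covered the added CPM, the filter on low genes, thinning to 40000 UMIs, the Hox cut, the cell filter, doublets, the BELA reference, averaging over cells, centring and genes shared with endoderm cells.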

Additional observations from a re-analysis of the deposited data

How the results depend on the processing

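No paired analysis was possible because each group is 1 library, and for the same reason no replicate could be left out. The 65 higher and 82 lower genes moved by more than 1.5 times with the CPM added, to 119 and 189 with 1 CPM and 17 and 27 with 20 CPM. Without genes that were over 2-fold higher in the VE cells of BELAs, 55 were higher and 49 lower. The number of the 30 ranked genes past 2-fold was 30 and became 19 in that setting, since the 11 others were left out of it, and lay between 21 and 30 in all others. Chosen after seeing the data, the 27 cells without posterior transcripts gave 56 higher and 127 lower genes and the 73 cells with the least of them 41 and 97.

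Of the gene lists, 10 had a median of at least 0.5 in size, 6 with 20 CPM added and 1 without the filter on low genes. The formative median of -0.02 lay between -0.12 and 0.01 in the settings planned and became 0.22 and 0.10 in the 27 and 73 cells. The hypoxia median of -0.64 became -0.83 with 1 CPM and -0.35 with 20 CPM. The streak and mesoderm median, of 2 genes, turned to -0.025 without the filter and -0.52 in the 27 cells, and that of the Wnt ligand list, also of 2 genes, to -0.0052 in the 27 cells. The cause was not tested in any of these. The share of Hox-low T-negative cells with an Otx2 UMI was 85.8% as sequenced and 79.3% thinned, and the number of such cells lay between 221 and 331 under other cuts and filters. A gene with 0 UMIs in these cells may still be present at up to 0.168 CPM, which 3 UMIs would give.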
